A study of Rattus norvegicus with 4 samples.

Results

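The genes *Thy1* (ENSRNOG00000006604) and *Art2b* (ENSRNOG00000019687) were described in the blood leukocytes of rats, as 2 of the 25340 genes listed. They were taken by symbol, and their UMIs (unique molecular identifiers, 1 per captured transcript molecule) were counted in CD4 T cells, CD8 T cells and B cells with and without *Cd24*. The study compared sham, spinal cord injury and mesenchymal stromal cell treatment of injured rats, with 1 droplet single-cell RNA library of blood per group. The Sham library came from the sham group and the SCI library from the injured group. The MSC-i.t library came from rats given 10000000 umbilical cord stromal cells per kg intrathecally, and the MSC-i.v library from rats given 30000000 per kg intravenously, each in 2 doses, 72 h and 7 days after injury. The design text assigns 10 rats to each of the 4 groups and describes all 40 as injured by Allen's weight-drop method, Sham included. The strain, the age, the day of the blood draw, the species of the stromal cells and how many rats were pooled in a library are not given in the sources used here. The data set of the SCI library carries another time tag in its name than the other 3, so injury and time of sampling cannot be told apart there.

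Thy1, also called CD90, is a small glycoprotein held in the membrane by a glycosylphosphatidylinositol (GPI) anchor. In the rat it is abundant on thymocytes, stays on T cells that have just left the thymus and on B cells that have just left the bone marrow, and is lost as these cells mature. *Art2b* encodes ART2, formerly RT6, a GPI-anchored ectoenzyme of T cells whose substrate is extracellular NAD. In the rat ART2 appears after T cells leave the thymus, so the pair of proteins is used by flow cytometry to separate recent thymic emigrants from mature T cells. The libraries measure RNA and not the surface proteins.

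T cells were barcodes with at least 2 UMIs of *Cd3e*, *Cd3d* and *Cd3g* together, and B cells barcodes with at least 2 UMIs of *Cd79b* and *Ms4a1* together. Barcodes needed at least 500 UMIs and 200 genes. Every list of 4 values below runs from Sham through SCI and MSC-i.t to MSC-i.v. In that order 10573, 8527, 11338 and 16998 barcodes were kept, with a median of 4918, 5719, 5407 and 3764 UMIs. CD4 T cells (a *Cd4* UMI and none of *Cd8a* or *Cd8b*) numbered 636, 774, 821 and 725. CD8 T cells (the reverse) numbered 1975, 1952, 2527 and 2924. T cells without a UMI of either co-receptor were 3055, 2909, 3718 and 5093, so most T cells had no co-receptor call. B cells numbered 1813, 881, 1716 and 3107, of which 20.1%, 16.1%, 13.0% and 9.95% held a UMI of *Cd24*, the GPI-anchored antigen of immature B cells. Levels are given as CPM (a gene's share of the class's UMI total, in parts of 1e6). Barcodes that passed both gates were 1.91% to 3.46% of a library and were left out of both classes. Pairs of libraries shared 28 to 51 kept barcodes, at most 0.586% of a library. Independent draws from the listed barcodes would give 13.3 to 28.4, fewer than found in each pair, and the cause was not tested. The 4 T cell markers listed (*Cd3e*, *Cd3d*, *Cd3g* and *Lck*) summed to 2270 to 2640 CPM in the T cells of each library. B cell markers summed to 8.94 to 14.6 CPM there. The *Cd3* genes define the T cell gate, and *Cd79b* and *Ms4a1* of the B list stay below 2 UMIs together in each T cell by the gates. These sums therefore describe the classes and do not check the gates.

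*Art2b* RNA was found mainly in T cells, and was higher in CD8 than in CD4 T cells in each library. CD8 T cells held 258, 242, 278 and 282 CPM (mean 265 ± 18.4, SD, n = 4 libraries), from 3342, 3464, 4983 and 4207 UMIs. CD4 T cells held 186, 180, 183 and 203 CPM (mean 188 ± 10.4, SD, n = 4 libraries). The 2 ranges did not overlap, and the difference was a log2 fold change of 0.59 (SE 0.03, edgeR adjusted p = 6.04e-11, higher in 4 of 4 libraries). In that comparison 11.8% of 9351 genes were called higher in CD8 T cells. T cells without a co-receptor UMI held 195, 197, 218 and 191 CPM, a range that overlaps that of CD4 T cells.

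Outside T cells *Art2b* was low. B cells held 4.66, 7.45, 7.44 and 5.63 CPM, and 1.42% to 2.72% of them had a UMI, against 46.8% to 55.7% of T cells. T cells against B cells gave a log2 fold change of 5.50 (SE 0.08, edgeR adjusted p = 1.45e-13, higher in 4 of 4 libraries), where 31.6% of 10680 genes were called higher. The B cells were shallower, with a median of 2060 to 3241 UMIs against 3829 to 6031 in T cells. Barcodes of the monocyte gate, which should lack the gene, gave a share of 2.08% to 3.20% at a median of 3379 to 4973 UMIs, so the share in B cells is read as background. When barcodes of both gates were kept in the B class, its *Art2b* level became 39.9, 35.0, 60.8 and 39.5 CPM.

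Barcodes of the NK gate (at least 4 UMIs of 6 NK genes, no T or B call) lay between T cells and background for *Art2b*, with 38.7, 12.0, 49.6 and 42.3 CPM. The SCI value rests on 10 UMIs in 152 barcodes and was below those of the other 3 libraries. T cell markers summed to 375 to 461 CPM in the NK gate. Barcodes of that gate with 0 Cd3 UMIs held 37.0, 12.3, 54.1 and 39.8 CPM of *Art2b*, close to the whole gate. Barcodes that passed no gate held 164 to 283 CPM.

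**Figure D1:**
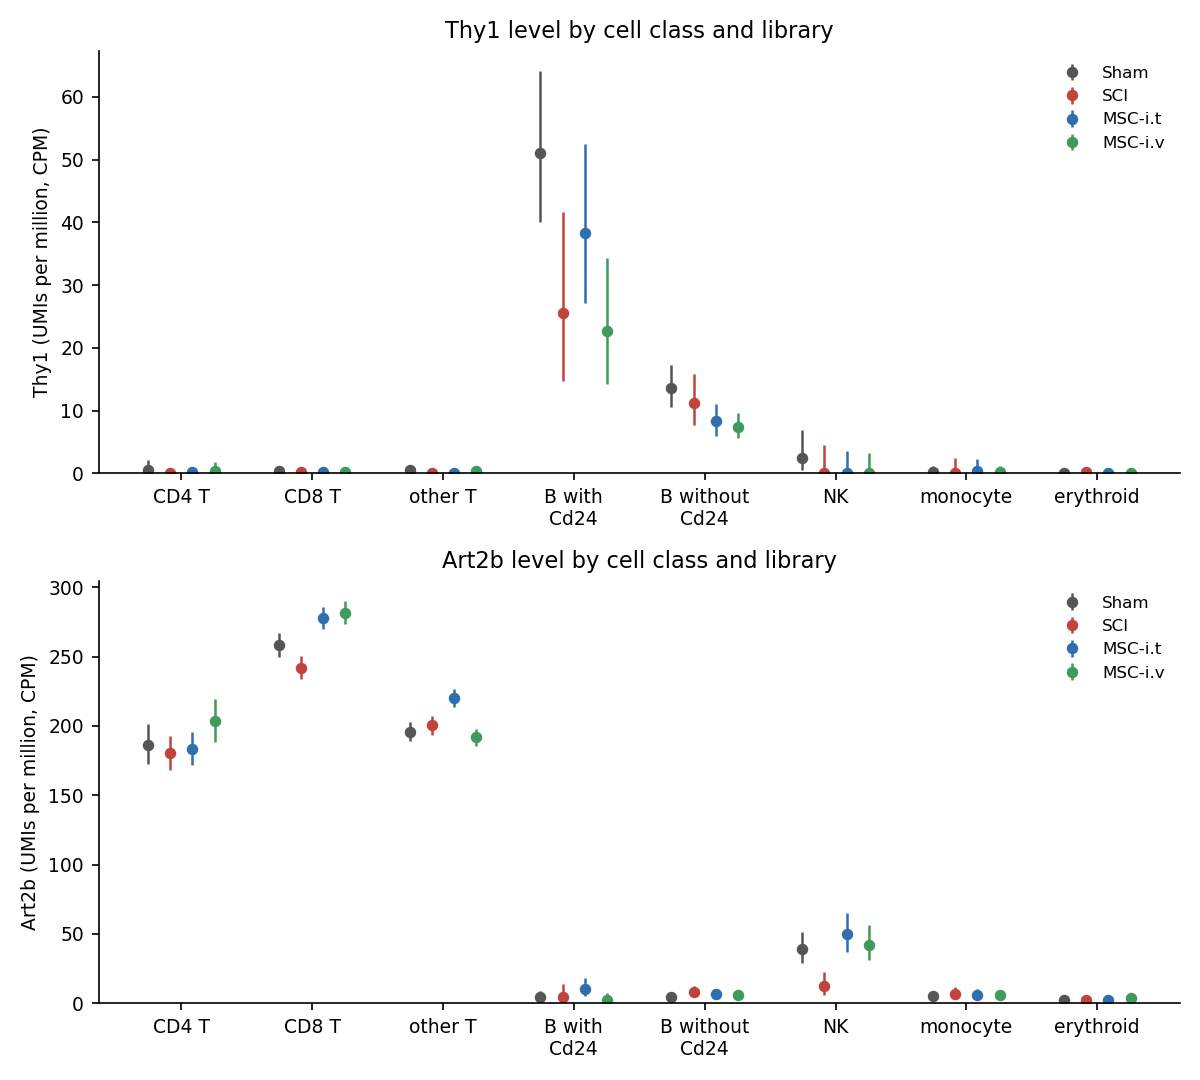
Level of *Thy1* (top) and of *Art2b* (bottom) by cell class, in CPM on linear axes from 0, 1 point per library with its exact 95% Poisson interval from counting. The *Thy1* points of B cells with *Cd24* lie at 22.7 to 51.0 CPM, above all other classes shown, and the *Art2b* points of CD8 T cells lie above those of CD4 T cells.

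*Thy1* followed the reverse order and was a B cell transcript in these libraries. Of all *Thy1* UMIs in kept barcodes (206, 59, 121 and 123), B cells held 68.4%, 81.4%, 67.8% and 63.4%, and T cells 7.77%, 5.08%, 4.96% and 11.4%. The level in B cells was 21.9, 13.8, 13.0 and 9.15 CPM, and in T cells 0.488, 0.0820, 0.133 and 0.361 CPM. T cells against B cells gave a log2 fold change of -5.44 (SE 0.27, edgeR adjusted p = 5.99e-09, lower in 4 of 4 libraries), in a comparison where 31.9% of genes were called lower.

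*Thy1* in CD4 T cells had 2, 0, 1 and 1 UMIs, and in CD8 T cells 5, 2, 3 and 4. The SCI library had a UMI in 0 of 774 CD4 T cells, which allows a share of up to 0.388%. The share of T cells with a UMI was 0.261%, 0.0524%, 0.0833% and 0.136%, and in the monocyte gate it was 0.119%, 0%, 0.228% and 0.0798%. The monocyte share, of a class which should lack the gene, rests on 1, 0, 1 and 1 UMIs. The deeper erythroid gate held 1 UMI in 5278 barcodes, against 39 UMIs in 27497 T cells. Background and *Thy1* RNA of a few T cells cannot be told apart at these counts. *Thy1* therefore could not be compared between CD4 and CD8 T cells, and T cells with and without *Thy1* could not be compared gene by gene, because no library had more than 4 CD4 or CD8 T cells with a UMI. NK barcodes held 3, 0, 0 and 0 UMIs. Barcodes that passed both gates held 18.4%, 10.2%, 24.8% and 17.1% of all *Thy1* UMIs, at 13.6, 4.90, 8.16 and 7.18 CPM.

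Within B cells *Thy1* was higher where *Cd24* was detected. B cells with *Cd24* held 51.0, 25.6, 38.2 and 22.7 CPM (mean 34.4 ± 13.0, SD, n = 4 libraries), from 73, 16, 38 and 22 UMIs. B cells without *Cd24* held 13.6, 11.2, 8.27 and 7.41 CPM, from 68, 32, 44 and 56 UMIs. Every library's value with *Cd24* lay above all 4 values without it. The share of cells with a *Thy1* UMI was 15.1%, 9.15%, 14.3% and 6.15% with *Cd24*, and 4.01%, 3.52%, 2.68% and 1.86% without. After thinning each cell to 2000 UMIs the shares became 11.3%, 6.37%, 8.35% and 3.43% against 2.59%, 2.06%, 1.60% and 1.16%, the same order in each library. At 4000 UMIs the order held in Sham, MSC-i.t and MSC-i.v and turned in SCI, with 2.50% of 53 cells with *Cd24* against 4.05% of 173 without.

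For the test, each B cell with *Cd24* was paired with one without it of nearly the same UMI total in the same library. *Thy1* was 51.0, 25.6, 38.2 and 22.7 CPM against 14.0, 17.7, 2.02 and 10.3 CPM in the paired cells, a log2 fold change of 1.65 (SE 0.32, edgeR adjusted p = 0.00355, higher in 4 of 4 libraries). In this comparison 2.28% of 6148 genes were called higher and 3.53% lower. Without the Sham library, which held about as many UMIs as the other 3 together, the log2 fold change was 1.57 with an edgeR adjusted p of 0.104. The paired cells without *Cd24* of the MSC-i.t library held 2 *Thy1* UMIs, at a lower CPM than all such cells of that library.

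Read from the other side, *Cd24* was detected in 48.7%, 33.3%, 44.4% and 26.8% of B cells with *Thy1* and in 18.2%, 15.3%, 11.6% and 9.55% of those without. The exact 95% intervals of the share with *Thy1* were 39.2% to 58.3%, 19.1% to 50.2%, 32.7% to 56.6% and 16.9% to 38.6%. The median UMI total was nearly the same in both sets, 2919 against 2720 in Sham and 2056 against 2060 in MSC-i.v. *Thy1* was sparse even in the cells that held it. Of the 113, 39, 72 and 71 B cells with *Thy1*, 90, 33, 64 and 64 had a single UMI, and the highest count in 1 cell was 4.

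The level of *Thy1* also differed along the number of *Cd24* UMIs per cell. In the Sham library it was 13.6 CPM with 0, 40.3 with 1, 62.5 with 2 and 61.5 with 3 or more *Cd24* UMIs. In the MSC-i.t library the same steps gave 8.27, 20.5, 27.7 and 105 CPM. In SCI they gave 11.2, 23.7, 0 and 44.6 CPM, and in MSC-i.v 7.41, 11.2, 68.2 and 18.2 CPM. The step of 0 rests on 26 cells, and the upper steps hold 26 to 96 cells a library, so no order among them is read.

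B cells with at least 2 UMIs of B cell precursor genes held more *Thy1* than those with none, a difference that rests on 1 cell in SCI. *Igll1* (a chain of the surrogate light chain), *Vpreb1* (its partner), *Rag1* (the recombinase of antigen receptor genes) and *Dntt* (terminal transferase) mark B cells before and around light chain rearrangement. B cells with at least 2 UMIs of these 4 genes numbered only 29, 6, 13 and 19 and held 213, 96.1, 128 and 41.0 CPM of *Thy1*, from 23, 2, 6 and 2 UMIs. Both UMIs of SCI came from 1 cell. B cells with 1 such UMI held 57.3, 0, 31.4 and 41.6 CPM, and those with none 18.1, 13.4, 11.9 and 8.50 CPM. Among B cells with *Cd24* but no precursor UMI the level was 39.95, 23.8, 32.8 and 19.9 CPM, still above B cells without *Cd24* in each library. Leaving out all cells with a precursor UMI, an alternative added after seeing the data, gave a log2 fold change of 1.52 for *Thy1* in B cells with *Cd24* (SE 0.33, edgeR adjusted p = 0.0110).

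*Fcer2* (the IgE receptor CD23) and *Fcmr* (the IgM receptor) are carried by follicular B cells. B cells with *Cd24* and without a UMI of either receptor held 120, 84.6, 71.6 and 37.3 CPM of *Thy1*, in 61, 12, 21 and 49 cells. With *Cd24* and a receptor UMI the level was 40.4, 20.8, 35.2 and 20.4 CPM. Without *Cd24* and with a receptor UMI it was 12.4, 11.8, 8.37 and 8.15 CPM. The 3 sets kept this order within each library. All B cells without *Cd24*, with or without a receptor UMI, held 13.6, 11.2, 8.27 and 7.41 CPM. Outside Sham these values lay below those of the set without *Cd24* and with a receptor UMI. There, among B cells without *Cd24*, a missing receptor UMI did not go with more *Thy1*.

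**Figure D2:**
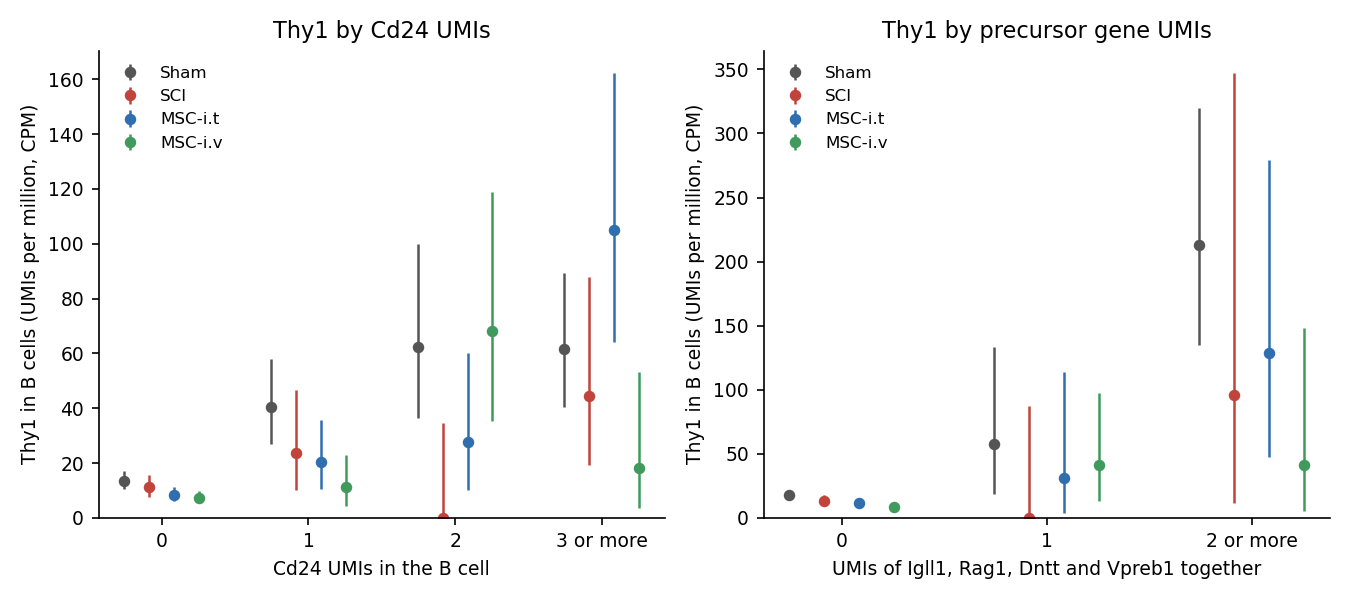
*Thy1* level in B cells by the number of *Cd24* UMIs in the cell (left) and by the number of UMIs of *Igll1*, *Rag1*, *Dntt* and *Vpreb1* together (right), in CPM, 1 point per library with its exact 95% Poisson interval. The points at 0 UMIs lie low with narrow intervals (7.41 to 13.6 CPM on the left), and the sets of few cells to their right have wide intervals.

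B cells with *Thy1* were then compared with the same number of B cells without it, paired on UMI total within each library. The early B cell genes *Cd24*, *Igll1* and *Ebf1* were higher in cells with *Thy1*, and the complement receptor gene *Cr2* and the IgE receptor gene *Fcer2* of mature B cells were lower. Of 2896 genes tested, 33 (1.14%) were called higher and 44 (1.52%) lower. *Cd24* was 398, 226, 421 and 153 CPM in cells with *Thy1* against 124, 122, 34.4 and 46.2 CPM, a log2 fold change of 1.82 (SE 0.27, edgeR adjusted p = 0.00274). *Igll1* had 63, 9, 32 and 20 UMIs in cells with *Thy1* and 0 in all paired cells without it, and the 9 of SCI came from 1 cell. Several *Igll1* UMIs can come from the same cell, and the paired cells are a small part of the B cells without *Thy1* (113 of 1700 in Sham). No fold change is therefore read from the 0. *Ebf1*, the transcription factor that specifies the B lineage, rose by 0.63 on the log2 scale (edgeR adjusted p = 0.0298).

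The list of early B cell genes, chosen with earlier results of these data known, had 13 genes, of which these 3 were tested. *Igll1* passed the filter on low counts through the cells with *Thy1* alone, and *Cd24* repeats the association given above, so no share of that list is read as support. The list of mature B cell genes had 7 of 11 tested, with 0 higher and 2 lower (median -0.22). *Cr2* was 62.1, 48.9, 65.6 and 41.6 CPM with *Thy1* against 126, 141, 114 and 116 CPM without, and the 2 ranges did not overlap (log2 fold change -1.24, SE 0.20, edgeR adjusted p = 0.00417). The cells with *Thy1* gave 29, 8, 19 and 9 UMIs of *Cr2*. *Fcer2* was 96.4, 91.7, 173 and 111 CPM against 133, 147, 238 and 153 CPM, ranges that overlapped, and was lower in 4 of 4 libraries by a log2 fold change of -0.62 (edgeR adjusted p = 0.0446). *Fcmr* (0.07, edgeR adjusted p = 0.806) and *Cd22*, an inhibitory receptor of B cells (-0.22, edgeR adjusted p = 0.735), were not called.

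The other genes with the largest positive changes were *Stambpl1*, a deubiquitinase (log2 fold change 2.17), *Tfdp2*, a partner of E2F factors in the cell cycle (2.05), *Fam129c* (1.64) and *Akap12*, a kinase anchoring protein (1.61). *Fam129c* was 311, 232, 242 and 217 CPM with *Thy1* against 77.1, 97.8, 68.9 and 64.7 CPM without. All 4 were higher in 4 of 4 libraries, with edgeR adjusted p of 0.000186 to 0.00417.

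Large negative changes were those of *Sdf2l1* (-1.79) and *Sec11c* (-1.62), both of the endoplasmic reticulum, *Clec4m*, a C-type lectin (-1.73), and *S100a6*, a calcium-binding protein (-1.71). The *Sdf2l1* call was lost without the SCI library (edgeR adjusted p = 0.0643) and without MSC-i.v (0.132), and with gates of at least 3 UMIs (0.0830). Without the replicate block the calls of *S100a6* (edgeR adjusted p = 0.492), *Sdf2l1* (0.187) and *Sec11c* (0.0755) were lost. *S100a6* had 1 UMI with *Thy1* against 2 without in SCI, and 4 against 15 in MSC-i.t. Plasma cell markers summed to 261, 330, 249 and 190 CPM in B cells with *Thy1* and 390, 794, 82.7 and 652 CPM in the paired cells without it. Monocyte markers summed to 1660, 91.7, 131 and 902 CPM with *Thy1* and 5120, 61.1, 1350 and 1120 CPM without. The part of these levels in the lower genes was not tested. *Thy1* is also abundant on stromal cells, and 0 of 7 stromal markers (*Col1a1*, *Dcn* and *Pdgfrb* among them) had a UMI in B cells with *Thy1* in any library. These cells are few and the species of the stromal cells given to the rats is not known here. A stromal part in *Thy1* was not tested. T cell markers summed to 96.4, 73.4, 104 and 74.0 CPM in B cells with *Thy1*, and to 73.6, 79.1, 71.4 and 66.2 CPM in all B cells.

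B cells with *Cd24* were compared with paired B cells without it in the same way, where 2.28% of genes were called higher and 3.53% lower. The early B cell genes called higher were *Rag1*, *Igll1*, *Dntt*, *Ebf1* and *Myb*, a transcription factor of lymphoid progenitors. Of 8 mature B cell genes 2 were lower (*Fcer2* and, in 3 of 4 libraries, *Cr2*). *Rag1* had 85, 11, 31 and 35 UMIs with *Cd24* and 2, 2, 3 and 0 without. This gene, *Igll1*, *Dntt* and *Myb* passed the filter on low counts mainly through the cells with *Cd24*, so no share of the early list is read. *Tnfrsf17*, the plasma cell survival receptor BCMA, was 4.19, 17.6, 1.01 and 13.4 CPM with *Cd24* against 91.1, 78.9, 63.7 and 77.5 CPM without (log2 fold change -3.44, edgeR adjusted p = 1.16e-06). Plasma cell markers were 256, 493, 206 and 248 CPM with *Cd24* and 603, 605, 410 and 395 CPM in the paired cells, and their part in the lower genes was not tested. *Stambpl1* was again among the largest increases (2.46), with *Dntt* (3.59) and *Myb* (2.45). The values of *Dntt* and *Myb* carry the limit of the filter given above. *Fcgr3a*, an IgG Fc receptor (-2.30), *Pdia4* (-2.15) and *Creld2* (-1.86), both of the endoplasmic reticulum, and *Tmem97* (-1.84) were the other large decreases, of which *Tmem97* was not called without the Sham library (edgeR adjusted p = 0.0983). *Gzma*, a granzyme, was higher with *Cd24* (log2 fold change 2.41), with 149 of its UMIs in the SCI library, and was not called without that library (edgeR adjusted p = 0.0889) or with detection set at 2 *Cd24* UMIs (0.120). NK markers summed to 194, 338, 154 and 132 CPM with *Cd24* and 93.9, 33.8, 185 and 47.5 CPM in the paired cells without it.

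**Figure D3:**
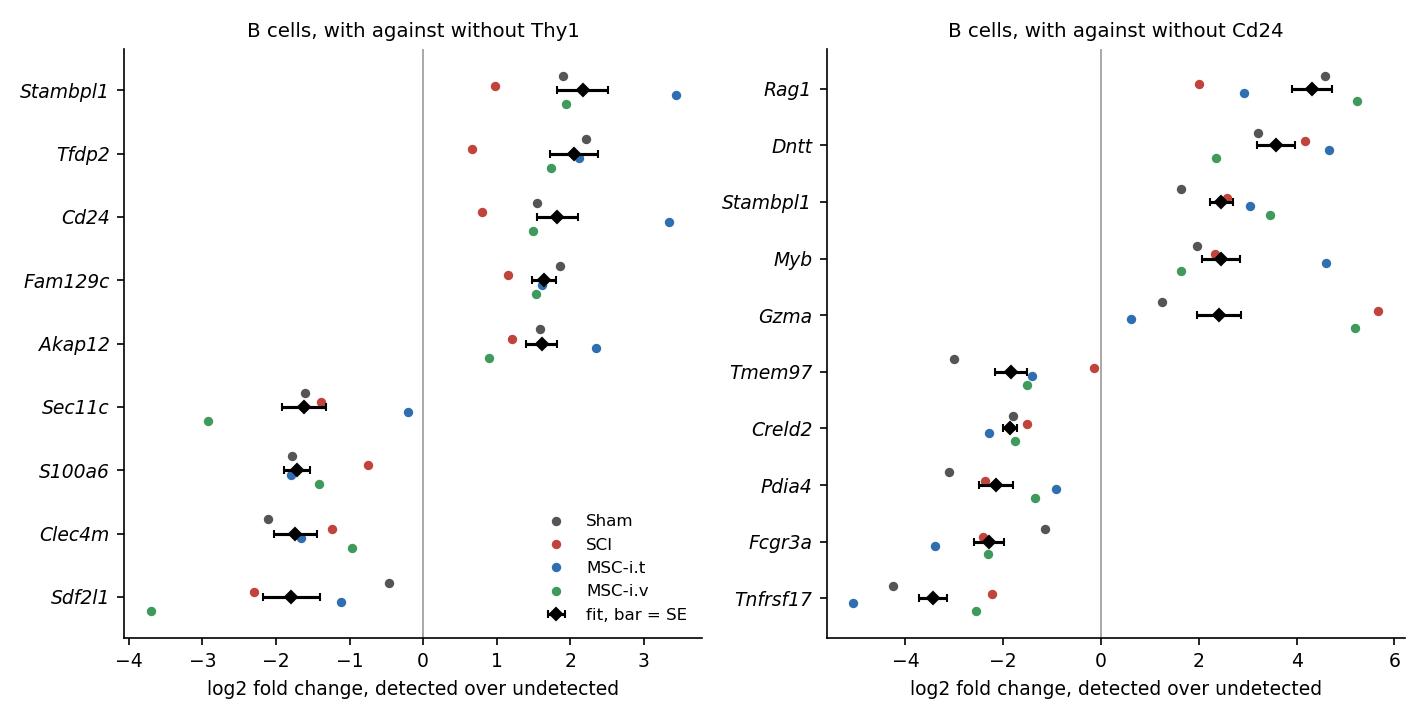
Log2 fold change of genes with large called differences in B cells with against without *Thy1* and with against without *Cd24*. Coloured points are the 4 libraries and diamonds the edgeR fit with its SE, and *Cd24*, *Stambpl1* and *Fam129c* lie above 0 and *S100a6* and *Clec4m* below 0 in each library of the *Thy1* comparison.

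*Art2b* was spread unevenly over T cells. If each cell held the mean level of its class in proportion to its UMI total, 60.7%, 65.4%, 65.5% and 55.9% of CD4 T cells would have shown a UMI, and 46.2%, 48.6%, 47.6% and 43.2% did. In CD8 T cells 77.3%, 79.7%, 81.9% and 71.8% would have, and 63.2%, 63.4%, 66.4% and 60.3% did. The shortfall was 11.6 to 17.9 percentage points. The same figure for *Camk4*, a calcium-dependent kinase, was never more than 2.67 points below its expectation, and for *Bcl11b*, a T lineage transcription factor, the shortfall was 3.40 to 6.76 points. *Gimap9*, a lymphocyte GTPase, fell short by 2.09 to 7.38 points. Among CD8 T cells with *Art2b*, 33.3% to 39.9% had 1 UMI, while the highest counts in 1 cell were 19, 17, 25 and 13. Among CD4 T cells with *Art2b*, 40.2% to 47.3% had 1 UMI, and the highest counts were 7, 11, 10 and 9.

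**Figure D4:**
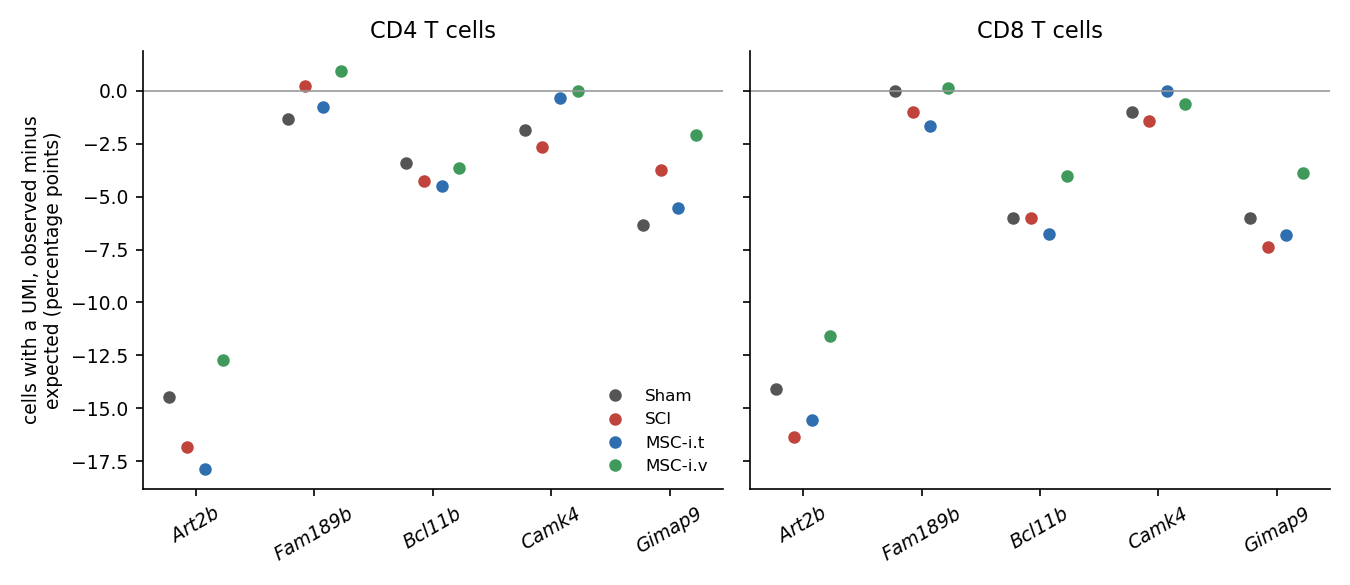
Share of cells with a UMI minus the share expected if each cell held the mean level of its class, in percentage points, for *Art2b* and 4 of the genes most like it across cell classes, in CD4 (left) and CD8 T cells (right). Points are the 4 libraries, the line marks 0, and *Art2b* lies 11.6 to 17.9 points below it.

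T cells with *Art2b* were compared with as many T cells without it, paired on UMI total within each library. The effector genes *Ccl5* and *Gzmk* were lower with *Art2b* in both CD4 and CD8 T cells. In CD4 T cells 95 of 6973 genes (1.36%) were called higher and 67 (0.961%) lower. In CD8 T cells 237 of 8554 genes (2.77%) were called higher and 186 (2.17%) lower.

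*Ccl5*, a chemokine stored by memory and effector T cells, was 139, 111, 285 and 144 CPM in CD8 T cells with *Art2b* against 1170, 1460, 891 and 658 CPM without (log2 fold change -2.53, SE 0.16, edgeR adjusted p = 3.94e-11). The CD4 T cells held 18.7, 15.3, 15.6 and 26.1 CPM against 112, 56.3, 45.4 and 89.8 CPM (-1.91, SE 0.14, edgeR adjusted p = 1.63e-08). The ranges of the 2 states did not overlap in either class. With detection set at 2 *Art2b* UMIs the CD4 call of *Ccl5* was lost, at a log2 fold change of -1.11 (edgeR adjusted p = 0.0709). *Gzmk*, a granzyme of memory T cells, was 8.74, 14.5, 31.3 and 22.4 CPM with *Art2b* against 138, 86.0, 93.5 and 63.5 CPM without in CD8 T cells (log2 fold change -2.15, SE 0.18, edgeR adjusted p = 2.46e-09). *Gzmb*, a cytotoxic granzyme (-2.19), *Cdkn3*, a cell cycle phosphatase (-1.59), and *S1pr5*, a sphingosine phosphate receptor of effector lymphocytes (-1.55), were the other large decreases in CD8 T cells, with edgeR adjusted p of 5.03e-06 to 0.000244. *Cdkn3* was not called without the 5% of barcodes with the most UMIs (-1.06, edgeR adjusted p = 0.0667).

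Among CD4 T cells the other large decreases were *Fcgr3a* (log2 fold change -2.10), *Gzmk* (-2.01), *Gzmm*, a granzyme (-1.69), and *Cxcr3*, a chemokine receptor of effector T cells (-1.52). *Gzmk* was not called without the Sham library (edgeR adjusted p = 0.0721), nor *Cxcr3* without Sham (0.141) or without SCI (0.0661). With detection set at 2 *Art2b* UMIs *Cxcr3* was -1.08 (edgeR adjusted p = 0.202), and with gates of at least 3 UMIs *Gzmm* was -1.29 (edgeR adjusted p = 0.0589). *Fcgr3a* is also a monocyte gene. Monocyte markers summed to 704, 149, 283 and 719 CPM in CD4 T cells with *Art2b* and 406, 263, 556 and 683 CPM without, higher on 1 side in 2 libraries and on the other in 2. NK markers summed to 432, 415, 511 and 399 CPM in CD8 T cells with *Art2b* and 717, 526, 618 and 461 CPM without, lower with *Art2b* in each library, and their part in the lower genes was not tested.

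Of the list of memory, effector and regulatory T cell genes, 12 of 18 were tested in CD4 T cells, with 0 higher and 6 lower (*Ccl5*, *S100a4*, *Itgb1*, *Gzmk*, *Cxcr3* and *Ccr6*, median log2 fold change -0.55). Over all genes 1.36% were called higher and 0.961% lower there. The list was chosen with earlier results of these data known, so its counts are not read as support. In CD8 T cells, where 2.77% of all genes were called higher and 2.17% lower, 15 were tested, with 8 lower and 1 higher (median -0.45). The one called higher was *Il2ra*, the high-affinity chain of the interleukin 2 receptor, at 7.36, 8.83, 15.8 and 11.5 CPM with *Art2b* against 6.42, 4.41, 6.34 and 6.99 CPM without (log2 fold change 0.94, SE 0.17, edgeR adjusted p = 0.000570).

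Of 11 naive and homing genes tested in CD8 T cells, 2 were higher, *S1pr1*, the receptor by which lymphocytes leave lymphoid organs (0.27), and *Lef1*, a transcription factor of naive T cells (0.18). The CD4 T cells had 1 of 10 higher, *S1pr1* (0.28). The medians of that list were 0.06 and 0.14. Over all genes 2.77% were called higher in CD8 and 1.36% in CD4 T cells, and this list too was chosen with earlier results known. *Ccr9*, a chemokine receptor of thymocytes and gut-homing T cells, was the 1 higher of 5 genes of early T cells tested in CD8 T cells (0.33, edgeR adjusted p = 0.00272), and 0 of 3 were called in CD4 T cells.

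The largest increases in CD8 T cells after *Il2ra* were *Cd63*, a tetraspanin of late endosomes (log2 fold change 0.93), *Pde2a*, a cyclic nucleotide phosphodiesterase (0.65), *Tor1b*, an ATPase of the endoplasmic reticulum (0.65), and *Dusp10*, a phosphatase of stress-activated kinases (0.63). For CD4 T cells they were *Pde2a* (1.03), *Dapk2*, a death-associated kinase (0.78), *Chd7*, a chromatin remodeller (0.74), *Jun*, an AP-1 subunit (0.67), and *Ier3*, an immediate early gene (0.61). *Pde2a* was 42.6, 30.6, 39.1 and 28.3 CPM with *Art2b* against 17.1, 19.8, 18.4 and 14.7 CPM without in CD4 T cells (edgeR adjusted p = 0.000240), and it was called higher in both classes. *Pde2a* is listed directly before *Art2b* in the deposited gene list, and whether reads were counted by strand is not given in the sources used here, so reads of these neighbours may not be fully separable. The calls of *Tor1b* and *Ier3* were lost when any 1 library was left out (edgeR adjusted p of 0.0760 to 0.262). *Dapk2* was not called without Sham (edgeR adjusted p = 0.124), SCI (0.0744) or MSC-i.t (0.281), nor *Chd7* without Sham (0.0630), *Jun* without SCI (0.0667), or *Dusp10* without SCI (0.0555) or MSC-i.t (0.0752).

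**Figure D5:**
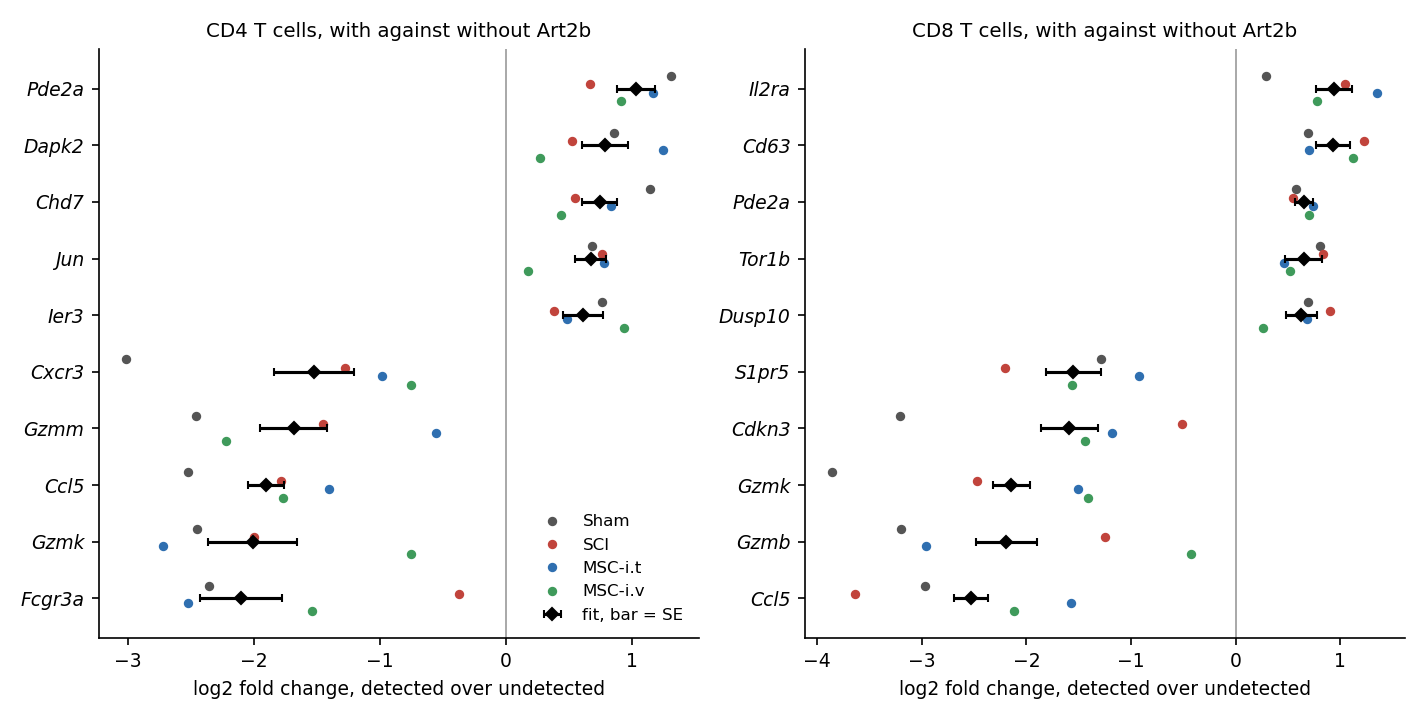
Log2 fold change of the genes with the largest called differences between T cells with and without *Art2b*, for CD4 and CD8 T cells. Coloured points are the 4 libraries and diamonds the edgeR fit with its SE, and *Ccl5* and *Gzmk* lie below 0 in each library of both classes.

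For genes related to the enzyme or to its anchor the lists are short, and the counts below are read against all genes, of which 1.36% were called higher and 0.961% lower in CD4, and 2.77% and 2.17% in CD8 T cells. Of the list of NAD and P2X7 pathway genes, which holds the ectoenzymes that make or consume NAD, 0 of 7 were called in CD4 T cells and 1 of 8 in CD8 T cells, where *Art4*, a related ADP-ribosyltransferase gene, had a log2 fold change of 0.24 (edgeR adjusted p = 0.0320). *P2rx7*, the ATP receptor that ART2 modifies in mice, was not among the genes tested. Of 5 other GPI-anchored lymphocyte proteins 0 were called in CD4 T cells, and in CD8 T cells *Cd59*, a complement inhibitor, was lower (-0.97, edgeR adjusted p = 1.39e-06). For the list of integrins and other counter-receptors of Thy1, 1 of 3 was lower in each T cell class (*Itgb1*). In B cells with *Thy1*, 0 of 2 counter-receptor genes, 0 of 1 NAD pathway gene and 1 of 5 GPI-anchored genes (*Cd24*) were called. With *Cd24*, 0 of 3, 0 of 6 and 0 of 5 were.

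The level of *Art2b* is given next in sets of T cells defined by single genes, as a description. For *Ccl5*, *Gzmk* and *Il2ra* this restates the split above on the same cells and adds no support to it. CD8 T cells with at least 10 *Ccl5* UMIs held 96.5, 108, 178 and 175 CPM of *Art2b*, and those with 0 held 261, 245, 283 and 284 CPM. CD8 T cells with *Gzmk* held 136, 154, 183 and 190 CPM against 265, 245, 282 and 285 CPM without. CD4 T cells with *Mki67*, a proliferation gene, held 20.8, 13.4, 19.5 and 119 CPM against 196, 185, 188 and 208 CPM, but these were 13 to 21 cells a library. In CD8 T cells the same split gave 127, 139, 142 and 158 CPM against 262, 244, 281 and 284 CPM. Each of these sets was below the set it is given against in each library.

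In the other direction, CD8 T cells with *Foxp3*, the transcription factor of regulatory T cells, held 337, 464, 498 and 351 CPM of *Art2b* against 257, 240, 274 and 281 CPM, in 21 to 40 cells a library. CD8 T cells with *Il2ra* held 336, 340, 429 and 395 CPM against 255, 238, 272 and 278 CPM. CD4 T cells with *Foxp3* held 131, 195, 242 and 153 CPM against 190, 180, 181 and 207 CPM, lower in Sham and MSC-i.v and higher in SCI and MSC-i.t.

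The 2 transcripts were rarely found in the same B cell and too rarely in T cells to compare. Of T cells with *Thy1* (15, 3, 6 and 12), 9, 1, 5 and 6 also held *Art2b*. These shares of 60.0%, 33.3%, 83.3% and 50% have exact 95% intervals of 32.3% to 83.7%, 0.840% to 90.6%, 35.9% to 99.6% and 21.1% to 78.9%, and each holds the share among T cells without *Thy1* (51.1%, 53.2%, 55.7% and 46.8%). Of B cells with *Thy1*, 2.65%, 2.56%, 6.94% and 1.41% held *Art2b*, that is 3, 1, 5 and 1 cells, against 1.59%, 2.73%, 2.13% and 1.42% of those without. In barcodes that passed both gates, 26.5%, 0%, 36.0% and 29.4% of those with *Thy1* held *Art2b*, which is 9, 0, 9 and 5 barcodes.

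Between libraries *Thy1* in B cells was highest in Sham. The other libraries cannot be tested against it, since each group has 1 library, and the intervals below cover counting error only. Over Sham the log2 ratio of CPM was -0.67 for SCI (95% interval -1.17 to -0.19), -0.75 for MSC-i.t (-1.16 to -0.35) and -1.26 for MSC-i.v (-1.68 to -0.85). Lower by at least 1.5-fold were 3.94%, 4.11% and 3.70% of the genes with at least 50 UMIs in 1 of the 2 libraries, and *Thy1* was among them in each. The same ratios were -0.99 (-1.87 to -0.20), -0.42 (-1.02 to 0.17) and -1.17 (-1.93 to -0.46) in B cells with *Cd24*, where 6.02%, 5.41% and 5.78% of genes were that much lower. They were -0.28 (-0.93 to 0.35), -0.71 (-1.30 to -0.15) and -0.87 (-1.41 to -0.34) in B cells without *Cd24*. Over SCI, MSC-i.t gave -0.08 (-0.61 to 0.46) and MSC-i.v -0.59 (-1.13 to -0.04) in all B cells. These comparisons share the Sham or the SCI library. The share of B cells with *Cd24* and their precursor marker level (50.6, 13.5, 20.6 and 20.9 CPM in all B cells) were also highest in Sham, and fewer cells with *Thy1* and less *Thy1* RNA per cell cannot be told apart in such sums.

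*Art2b* differed less between libraries. In CD4 T cells the log2 ratio over Sham was -0.05 (-0.20 to 0.10), -0.02 (-0.17 to 0.12) and 0.13 (-0.03 to 0.29) for SCI, then MSC-i.t, then MSC-i.v. In CD8 T cells it was -0.09 (-0.16 to -0.03), 0.10 (0.04 to 0.17) and 0.12 (0.06 to 0.19). Over SCI both treated libraries were higher in CD8 T cells, by 0.20 (0.14 to 0.26) and 0.22 (0.15 to 0.28). None of the CD8 ratios reached 1.5-fold. In the order given, 3.1%, 0.959%, 1.06%, 2.29% and 3.2% of genes did in the same direction. The median gene had a log2 ratio of -0.06 and -0.21 in the 2 comparisons with SCI, and with TMM scaling *Art2b* there became 0.28 and 0.41. In the NK gate *Art2b* in SCI was below Sham by a log2 ratio of -1.69 (-2.83 to -0.69). MSC-i.t was above SCI by 2.04 (1.05 to 3.18) and MSC-i.v by 1.81 (0.81 to 2.96). In MSC-i.t over SCI 8.26% of genes were at least 1.5-fold higher. The SCI value, from 10 UMIs, enters each of these ratios.

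Across 36 sums of 9 cell classes in 4 libraries, the genes most like each member were looked for by Pearson's r of log2(CPM + 10) among 9083 genes, as a description. For *Art2b* they included *Fam189b* (r = 0.98), *Bcl11b* (0.97), *Camk4* (0.97) and *Gimap9* (0.97). For *Thy1* they were *Degs2*, a sphingolipid desaturase (0.97), *Plpp3*, a lipid phosphatase (0.95), *Spib*, an ETS factor of B cells (0.92), *Plxnc1*, a semaphorin receptor (0.92), and *Eaf2*, an elongation factor partner (0.92). The sums share libraries and depth.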

How the data were processed

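The authors deposited unfiltered matrices of raw UMI counts, with Cell Ranger 4 as the software per the file headers. The submitters' processing notes name the rat build mRatBN7.2. The labels' extraction protocol describes a bulk poly(A) preparation and not a droplet library, so nothing was taken from it. The members and the gene lists were chosen with earlier results of these data known. Gates are given with the results. NK, monocyte, platelet (at least 4, 4 and 10 marker UMIs) and erythroid (at least 30% hemoglobin UMIs) gates were set after seeing the data. No doublet caller was run, and barcodes passing both lymphocyte gates were left out.

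Differences between cell states were tested with edgeR 4.0.16 (R 4.3.3), quasi-likelihood with TMM and filterByExpr, on counts summed per library and state. The library was a block because both sums of a pair come from the same library. Benjamini-Hochberg adjustment ran over all genes tested, at 0.05. Cells were paired on UMI total within 10%. The 4 libraries are different conditions, so p-values measure how a difference holds across them, and cells were not replicates. DESeq2 1.42.0 and the other alternatives are in the closing section. The procedure was tested on simulated data. Each split names the 5 largest called changes in each direction with at least 100 UMIs and the same direction in 4 of 4 libraries, leaving out the split gene, genes without a symbol of their own, and genes of hemoglobins, ribosomal proteins, mitochondria, immunoglobulins or T cell receptors. List members are named besides. Single libraries were compared by ratios with exact conditional binomial 95% intervals, levels by exact Poisson and shares by Clopper-Pearson intervals, and all of these cover counting error only. Thinning is the expected share at 2000 UMIs, with shallower cells left out. A few items are not reported here.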

Additional observations from a re-analysis of the deposited data

Results flagged for a closer look

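*Art2b* RNA was present in barcodes of 10 to 100 UMIs, which are too small to be kept as cells and entered no comparison. Its level there was 127, 127, 117 and 109 CPM (from Sham through SCI and MSC-i.t to MSC-i.v), from 60, 19, 76 and 272 UMIs, above the 6.33, 20.1, 4.61 and 1.203 CPM that a count of 0 would allow. *Thy1* had UMIs in such barcodes in the MSC-i.v library alone, 5 in all, or 2.004 CPM. For comparison, *Cd3e* was 156, 228, 201 and 171 CPM and *Cd79b* 205, 161, 163 and 191 CPM in the same barcodes.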

How the results depend on the processing

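No called change of a member or named gene, and no library ratio of at least 1.5-fold, changed its sign in an alternative. Levels, co-detection shares, counts of called genes and smaller ratios were checked only against the ranges given next, which cannot show a reversal. The thinned share of B cells with *Thy1* in SCI turned its order at 4000 UMIs (2.50% with *Cd24*, 4.05% without). Of the levels 163 of 180 values stayed within their interval, of the library ratios 170 of 175, of the co-detection shares 39 of 40, and of the counts of called genes 57 of 75 within 1.5 times. Without the replicate block edgeR called 0 genes for *Art2b* in CD4 T cells, with 318 at an unadjusted p under 0.05. DESeq2, run with the block only, called 112 there. Without the block edgeR called 1 for *Art2b* in CD8 T cells, 28 for *Thy1* and 80 for *Cd24* in B cells, and 724 for CD8 against CD4 T cells. Both sums of a pair share a library. Without that block *Thy1* by *Cd24* was 1.61 (edgeR adjusted p = 0.0894), and leaving out 1 library gave 1.27 to 1.94. Leaving out 1 library gave 51 (without SCI; 60 without Sham) to 145 calls for *Art2b* in CD4 T cells, 305 to 352 in CD8 T cells, 50 (without MSC-i.v) to 89 for *Thy1* and 160 (without Sham; 227 without SCI) to 298 for *Cd24*, against 162, 423, 77 and 357. DESeq2 called 195 (*Art2b*, CD8), 138 (*Cd24*) and 1018 (CD8 against CD4, edgeR 2177). All gated cells without pairing gave 245 (*Art2b*, CD4), 314 (*Thy1*) and 668 (*Cd24*). For *Thy1*, no filter on low counts gave 182, and leaving out the 5% of barcodes with the most UMIs 179. The causes were not tested.

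Without those 5%, *Art2b* was 202 CPM in CD4 T cells of Sham, 270.4, 288 and 306 in CD8 T cells and 231, 248 and 244 in all T cells of Sham, MSC-i.t and MSC-i.v, and MSC-i.v over SCI in CD8 T cells was 0.31. With barcodes of both gates kept, *Art2b* in B cells was 39.9, 35.0, 60.8 and 39.5 CPM, and in T cells of Sham, MSC-i.t and MSC-i.v *Art2b* was 212, 232 and 221 CPM and *Thy1* 1.52, 0.738 and 0.839 CPM. *Art2b* among B cells with *Thy1* of Sham was then 8.16%. With TMM the *Art2b* ratios in CD8 T cells were -0.19 (SCI over Sham), 0.22 (MSC-i.v over Sham), 0.28 and 0.41 (MSC-i.t and MSC-i.v over SCI). Of the values of single named genes 56 of 476 lost their call. DESeq2 gave no adjusted p for 32 values of single genes, *Thy1* by *Cd24* in B cells among them, and these are not counted. Only 9 values of named genes could be compared under DESeq2, and these were unchanged. Splits by at least 2 *Thy1* UMIs were not run, since fewer than 10 cells were left in some libraries, and neither were alternatives for T cells with *Thy1*.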
